A study of Trachemys scripta with 4 samples.

Results

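Nerve tissue of the red-eared slider turtle, *Trachemys scripta*, was sampled at 2 embryonic stages, st.21 and st.19, and this account follows its genes for receptors of glutamate, GABA, glycine and acetylcholine. Members were the row names of the deposited expression table that spell a subunit of an AMPA, kainate, NMDA, delta or metabotropic glutamate receptor, a GABA-A, GABA-B or glycine receptor, a neuronal nicotinic receptor or a muscarinic receptor, whatever their values. The rule found 46 of the 15289 genes of the table. In RefSeq's annotation of the assembly the reads were mapped to, CAS_Tse_1.0, there are 57 gene names that fit the rule, and the other 11, among them CHRNA9, CHRNA10, GABRA6, GABRD, GABRP, GABRR3, GLRA2, GRIK1, GRIN1 and GRM3, were not analysed here.

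The st.21 and the st.19 tissue were pieces of the brachial and sacral plexus of embryos for which no treatment was given, taken because 1 nerve alone would have given too little RNA. Eggs for both stages came from females given oxytocin and were kept at 28 °C. No strain, sex or genotype was given. The supplement of the paper gives marker levels for 1 sequenced sample of st.19 and 2 of st.21, and the 2 of st.21 differ in several markers. The st.21 columns used here carry a further 2 in their names whose meaning is not given in the sources used here. Which of the sequenced st.21 samples they hold is therefore not known. Each stage had 1 sample with 2 columns, replicate 1 and replicate 2. Over the 12950 genes compared for st.21 and the 12738 for st.19, those columns differed on average by less than sampling noise. The mean chi-square was 0.330 for st.21 and 0.492 for st.19. The rRNA gene described below differed far more between the st.19 columns, so this statement does not extend to it. The columns were counted as 1 sample per stage, no difference below has a replicate check, and no p-value is given.

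Receptors of these families turn a released transmitter into a current or a second messenger signal. AMPA, kainate and NMDA receptors are tetrameric cation channels opened by glutamate, GABA-A and glycine receptors are pentameric chloride channels, nicotinic receptors are pentameric cation channels opened by acetylcholine, and metabotropic glutamate, GABA-B and muscarinic receptors couple to G proteins. In vertebrate peripheral nervous tissue, sympathetic neurons receive their fast input through nicotinic receptors built from the α3 and β4 subunits, sensory neurons carry GABA-A, kainate and NMDA subunits, and Schwann cells have also been found to carry receptors of this kind.

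The depth was 2229177 and 2129599 reads on genes in the st.21 columns, against 4353821 and 4241655 in the st.19 columns, as recovered from the deposited log2 TPM values (TPM, transcripts per 1000000, is a read count divided by gene length and scaled to a fixed total, so it can be compared between genes). An rRNA gene, LOC117869916, held 0.145% and 0.317% of all TPM in st.21, against 18.9% and 44.2% in st.19, which lowers every other value of the st.19 columns by its share. Within st.19, replicate 1 exceeded replicate 2 by 0.53 (log2) at the median gene, and the 4 values of a gene are therefore given column by column. Of the Schwann cell markers 13 of 14 were in the table, with a summed level of 6306 and 6156 TPM in st.21, against 3711 and 2445 TPM in st.19. For central glia and progenitors 3 of 14 markers were in the table. Their summed level was 604 and 609 TPM in st.21, against 1003 and 697 TPM in st.19. Most of it was FABP7, with 573 and 579 TPM in st.21, against 965 and 672 TPM in st.19. OLIG1 stayed at or below 8.98 TPM in each column. Which cells of the nerve held FABP7 was not tested, so this sum gives no level of central glia. For spinal interneurons and central neurons 5 of 17 were in the table. They reached 46.3 and 46.9 TPM in st.21, against 119 and 81.5 TPM in st.19, most of it SLC17A6. SLC17A6 alone had 36.8 and 38.8 TPM in st.21, against 112 and 77.1 TPM in st.19. The other genes of this list stayed at or below 6.16 TPM in each column, and their directions were mixed. SLC17A6 is also the transporter of sensory neurons, so this sum gives no level of central neurons. How much central tissue the samples held was not tested.

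Most receptor genes had lower values in st.21 than in st.19. Only genes that reached 1 TPM in 2 columns or more were analysed, which were 45 receptor genes and 15100 genes in all. GRIN2C was left out by that filter, and CHRM5 and GRIN3A passed it through their st.19 columns alone. The paper also describes an earlier filter, at 1 count per 1000000 reads (CPM) and 2 samples. Whether it was applied to the deposited values is not stated. GRIN2C, GRIN3A, CHRM5, GABRG3 and CHRNA5 had at most 2 reads in each st.21 column, under 1 CPM, and reached 1 CPM in st.19 alone. GLRA1, with 3 and 3 reads in st.21 and 3 and 2 reads in st.19, reached 1 CPM in st.21 alone. The lower genes counted below include GRIN3A, GABRG3 and CHRNA5, and GRIN2C where it is added. The change of a gene was its mean log2 TPM over the st.21 columns less its mean over the st.19 columns, and a change past 1 in either direction, which is 2-fold, was counted. By that measure 20 of 45 receptor genes were lower in st.21, where 9.68% of all genes were, and 2 of 45 were higher, where 17.3% of all genes were. With GRIN2C included the counts were 21 lower and 2 higher of 46. The median change was −0.88 over the receptor genes, against 0.06 over all genes. Both st.21 columns lay below both st.19 columns for 30 of 45 receptor genes (31.9% of all genes) and above them for 3 (38.9% of all genes).

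The choice of scaling moved these values. With TPM rescaled to the total of protein-coding genes, which takes out the rRNA gene, the median of all genes moved to −0.46 and that of the receptor genes to −1.40, and 25.2% of all genes were then lower past 2-fold and 7.54% higher. The receptor median minus the median of all genes was −0.94 on the log2 scale under both, −0.88 with quantile normalization and −0.77 with log2(TPM + 1). The sign of the change was negative under every scaling tried for 37 of 46 receptor genes, positive under every one for 3 (CHRNA2, CHRM1 and GLRA1), and depended on the scaling for 6, among them GABRA4, CHRNA6, GRIN2D, GRIN3B and GRIK3.

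Summed over the 46 genes the receptors reached 350.6 and 348.9 TPM in st.21, against 801.7 and 555.9 TPM in st.19. General neuronal markers were lower at their median too. Of 20 such markers 17 were in the table, 7 were lower in st.21 past 2-fold and none was higher, their median change was −0.74, their summed level was 6044 and 6107 TPM in st.21, against 9586 and 6573 TPM in st.19, and none of the 17 was at 0 reads in any column. Of the 45 receptor genes 25 had a change below that median in the deposited scaling, but 14 did with quantile normalization, where the neuronal median was −1.40 and the receptor median −0.95, and 22 with log2(TPM + 1), where these medians were −0.74 and −0.72, so no order of receptors and neuronal markers is given.

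Other cell type markers also differed between the stages. Sensory neuron markers had 2 of 13 lower and 1 higher, with a median of −0.50 and a summed level of 708 and 723 TPM in st.21, against 1443 and 995 TPM in st.19. Fibroblast and perineurium markers had 5 of 10 higher and none lower, with a median of 1.15 and a summed level of 28451 and 28123 TPM in st.21, against 6326 and 4302 TPM in st.19. Endothelial markers had 5 of 8 higher and none lower, with a median of 1.12 and a summed level of 165 and 171 TPM in st.21, against 87.0 and 61.3 TPM in st.19. None of these markers was at 0 reads in any column. These counts depended on the scaling. With the protein-coding total 10 of 17 general neuronal markers and 7 of 13 sensory neuron markers were lower past 2-fold. Under it 4 of 10 fibroblast and perineurium markers, 2 of 8 endothelial markers and 1 of 13 sensory neuron markers were higher. The paper warns that such small nerves were hard to dissect and that neighbouring tissue could have come along and affected the values. The part of any of these cell types, or of such attached tissue, in the receptor values was not tested. In such tissue fewer neurons, more of other tissue and less RNA per neuron cannot be told apart.

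**Figure D1:**
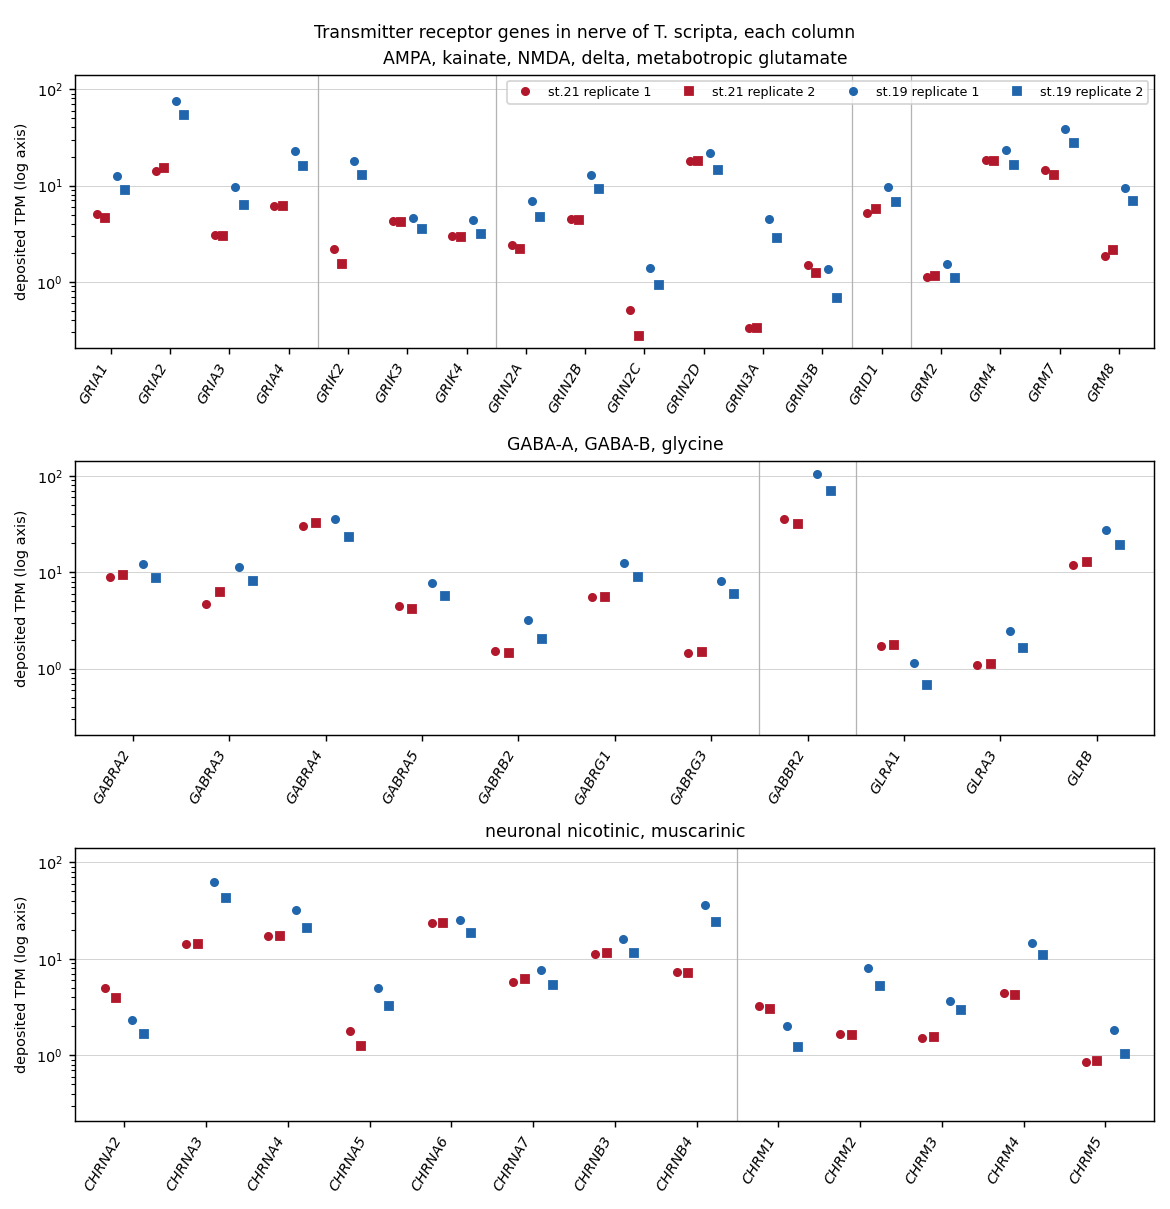
Deposited TPM (log axis) of 42 receptor genes, 1 point per column, with the st.21 columns in red left of the st.19 columns in blue, circles for replicate 1 and squares for replicate 2, and grey lines between families. GRIA2 sits well below its st.19 level, at 14.2 and 15.2 TPM in st.21 and 74.6 and 53.2 TPM in st.19, while CHRNA6 had 23.5 and 23.5 TPM in st.21 and 25.1 and 18.6 TPM in st.19.

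The AMPA receptor genes, which encode the channels of fast glutamate transmission, were the one family of more than 1 gene in which each member was lower in st.21 past 2-fold. GRIA2, whose edited subunit makes AMPA receptors impermeable to calcium, had 14.2 and 15.2 TPM in st.21, against 74.6 and 53.2 TPM in st.19, from 77 and 79 reads in st.21 and 846 and 831 reads in st.19. Its groups of values did not overlap, and its change was −2.10, with a replicate 1 change of −2.41 (95% interval −2.76 to −2.07). All such intervals come from an exact binomial (Clopper-Pearson) calculation on the reads of the replicate 1 columns and cover counting error only. GRIA4 had 6.11 and 6.11 TPM in st.21 and 23.0 and 16.0 TPM in st.19, a change of −1.65 (replicate 1 interval −2.58 to −1.39). GRIA3 had 3.08 and 3.01 TPM in st.21 and 9.59 and 6.31 TPM in st.19, a change of −1.35 (replicate 1 interval −2.25 to −1.14). GRIA1 was at 5.11 and 4.66 TPM in st.21 and 12.7 and 8.94 TPM in st.19, a change of −1.13 (replicate 1 interval −1.94 to −0.79). In all 4 genes both st.21 columns were the low ones, and without st.19 replicate 1 the changes of GRIA1 and CHRM3 were within 2-fold and 16 receptor genes were lower past it.

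GRIA2 was second by mean TPM among the 46 receptor genes in st.19 and held rank 8 in st.21. Within the AMPA family, on reads per length, GRIA2 made up 50.5% and 53.0% in the st.21 columns, against 62.5% and 63.3% in the st.19 columns, and GRIA1 17.7% and 15.9% in st.21, against 10.5% in both st.19 columns. Such shares do not depend on the scaling of a column. Of the reads on GRIA2 and GRIA1 together, GRIA2 took 70.6% in st.21 replicate 1 (interval 61.2% to 79.0%), against 83.4% in st.19 replicate 1 (81.0% to 85.7%). This pair and the others set side by side below were chosen after their values were seen.

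Among kainate receptor genes, GRIK2 was the one lower in st.21 past 2-fold. GRIK2, a pore subunit that forms channels alone or with other kainate subunits, had 2.21 and 1.53 TPM in st.21, against 17.9 and 12.8 TPM in st.19, from 11 and 7 reads in st.21 and 203 and 200 reads in st.19, and its change was −3.04 (replicate 1 interval −4.18 to −2.29). GRIK3 had 4.32 and 4.19 TPM in st.21 and 4.60 and 3.52 TPM in st.19, a change of 0.08 that became −0.45 with the protein-coding total, so its direction was not settled. The high affinity subunit gene GRIK4, which overlaps LOC117868481, had a change of −0.34. The make-up of the family, counted without GRIK1, which was not in the table, differed between the stages. GRIK2 made up 22.7% and 16.7% of it in the st.21 columns, against 67.8% and 67.0% in the st.19 columns. Of the reads on GRIK3 and GRIK2 together, GRIK3 took 57.7% in st.21 replicate 1 (interval 36.9% to 76.6%) and 14.0% in st.19 replicate 1 (9.82% to 19.1%), intervals that do not overlap although the st.21 column had only 26 such reads.

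NMDA receptors join a glycine-binding subunit to glutamate-binding GRIN2 subunits, and the analysed genes here were GRIN2A, GRIN2B, GRIN2D, GRIN3A and GRIN3B. GRIN2A had 2.42 and 2.22 TPM in st.21 and 6.93 and 4.73 TPM in st.19, a change of −1.31 (replicate 1 interval −2.13 to −1.01). GRIN2B was at 4.45 and 4.41 TPM in st.21 and 12.8 and 9.20 TPM in st.19, a change of −1.29 (replicate 1 interval −2.30 to −0.92). GRIN2D, whose subunit gives slowly closing channels and which in rodents is expressed early in development, was the most abundant of the NMDA genes in the table, which lacks GRIN1. It had 18.0 and 17.9 TPM in st.21 and 21.8 and 14.4 TPM in st.19. Its columns overlapped between the stages, its change was 0.02, and with the protein-coding total it was −0.51. Counted without GRIN1, GRIN2D made up 69.1% and 70.9% of the NMDA reads per length in st.21, against 45.6% and 44.9% in st.19. GRIN2D took 75.6% of the reads on GRIN2D and GRIN2B in st.21 replicate 1 (interval 65.4% to 84.0%) and 55.7% in st.19 replicate 1 (49.9% to 61.3%).

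GRIN3A, which encodes a subunit that lowers the calcium permeability of NMDA receptors, had no read in either st.21 column and 31 and 27 reads in the st.19 columns. Set against a floor of 3 reads per st.21 column, it was at least 3.04-fold lower in st.21. Its fitted values of 0.34 and 0.33 TPM in st.21, against 4.45 and 2.84 TPM in st.19, rest on the small count added before the logarithm, and its fitted change of −3.41 is no bound. With GRIN3A set at its bound the median over the receptor genes stayed at −0.88. GRIN3B had 1.49 and 1.24 TPM in st.21 and 1.36 and 0.67 TPM in st.19 from at most 7 reads a column, a change of 0.51 that became −0.02 with the protein-coding total. GRIN2C, the member left out by the filter, had 1 and 0 reads in st.21 and 10 and 9 reads in st.19.

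GRID1 encodes a delta receptor, a protein that links synaptic partners and is not opened by glutamate. GRID1 had 5.23 and 5.73 TPM in st.21 and 9.66 and 6.79 TPM in st.19, a change of −0.56, or −1.09 with the protein-coding total, which was past 2-fold.

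Among the metabotropic glutamate receptors, the presynaptic receptor genes GRM8 and GRM7 were lower in st.21 and GRM4 was within 2-fold, though all 3 encode inhibitory receptors of one subgroup. GRM8 had 1.85 and 2.14 TPM in st.21, against 9.43 and 6.93 TPM in st.19, a change of −2.02 (replicate 1 interval −3.89 to −1.43). GRM7 had 14.5 and 12.8 TPM in st.21, against 38.5 and 27.6 TPM in st.19, a change of −1.26 (replicate 1 interval −2.11 to −0.84). GRM4 had 18.4 and 17.8 TPM in st.21 and 23.3 and 16.3 TPM in st.19, and its columns overlapped, with a change of −0.11. GRM4 made up 52.7% and 54.2% of the family in st.21 and 32.4% and 31.7% in st.19. Of the reads on GRM4 and GRM7, GRM4 took 74.8% in st.21 replicate 1 (interval 65.2% to 82.8%), against 58.0% in st.19 replicate 1 (52.6% to 63.2%). GRM2, which overlaps IQCF6, stayed at or below 1.52 TPM in each column. Over the glutamate receptors 10 of 18 analysed genes were lower past 2-fold and none was higher, with a median change of −1.19.

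**Figure D2:**
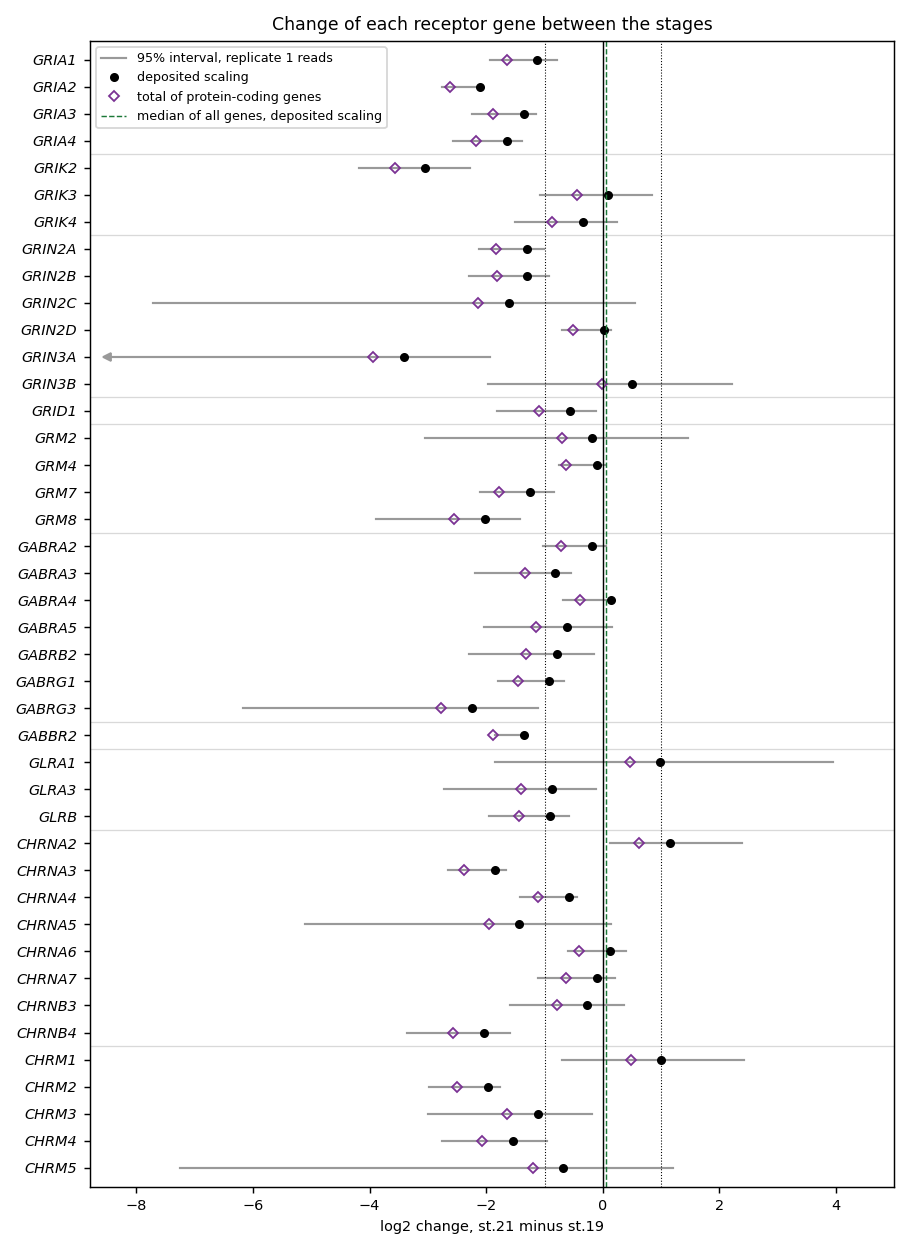
Log2 change of 42 receptor genes, st.21 minus st.19, in the deposited scaling (black points) and with the total of protein-coding genes (open diamonds), with the 95% counting interval of the replicate 1 columns as grey bars. An arrow marks GRIN3A, whose interval has no lower end because st.21 had no read, and the dotted lines are at −1 and 1. The points of the 4 AMPA genes lie left of −1, and only CHRNA2 has a bar wholly right of 0.

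GABA-A receptor genes were more often within 2-fold than past it, with 3 of 10 lower and none higher. The γ subunit gene GABRG3 had 1.44 and 1.48 TPM in st.21, against 8.17 and 5.92 TPM in st.19, from 2 and 2 reads in st.21 and 35 and 35 reads in st.19, and its change was −2.25 with a wide interval in replicate 1 of −6.18 to −1.12. Both of its st.21 columns lay below both st.19 columns.

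GABRA4 was second by level among all receptor genes in st.21, with 30.5 and 32.6 TPM, against 35.9 and 22.9 TPM in st.19. Its change was 0.14, its columns overlapped, and with the protein-coding total the change was −0.39, so no direction can be given. It made up 34.6% and 35.2% of the GABA-A reads per length in st.21 and 22.2% and 20.3% in st.19. Of the reads on GABRA4 and GABRG1 together GABRA4 took 65.6% in st.21 replicate 1 (interval 55.2% to 75.0%) and 49.4% in st.19 replicate 1 (43.7% to 55.1%), intervals that lie next to each other. For GABRA4 with GABRA3 the intervals overlapped, at 69.2% to 88.0% in st.21 replicate 1 and 58.5% to 71.0% in st.19 replicate 1. For GABRA5 with GABRG3 they overlapped too, at 51.6% to 97.9% and 40.0% to 63.9% in these columns. GABRA2, GABRA3, GABRA5, GABRB2 and GABRG1 had changes between −0.92 and −0.18. With the protein-coding total 7 of 10 GABA-A genes were lower past 2-fold, GABRA3, GABRA5, GABRB2 and GABRG1 among them.

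GABBR2, the subunit of the GABA-B receptor that couples to the G protein, ranked first by mean TPM in both stages. It had 35.6 and 31.7 TPM in st.21, against 105 and 70.2 TPM in st.19, and was the one receptor gene with over 100 reads in each st.21 column, 132 and 113, with 813 and 746 in st.19. Its change was −1.36 (replicate 1 interval −1.85 to −1.30), and its columns did not overlap. GABBR2 overlaps LOC117872725 and LOC117874019, and the strand setting of the counting is not given in the sources used here, so reads of these genes could be shared.

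Glycine receptor genes stayed within 2-fold in the deposited scaling, and with the protein-coding total 2 of 3 were lower past it, GLRB and GLRA3. GLRB, the subunit that anchors the receptor to gephyrin, was the most abundant, with 11.8 and 12.7 TPM in st.21, against 27.1 and 19.4 TPM in st.19, a change of −0.91 (replicate 1 interval −1.96 to −0.59). The channel subunit gene GLRA3 had a change of −0.88. GLRA1 had a change of 0.98 in the deposited scaling and 0.46 with the protein-coding total, yet it rested on 3 and 3 reads in st.21 and 3 and 2 reads in st.19, and its replicate 1 interval of −1.85 to 3.95 includes 0.

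CHRNA3, CHRNB4 and CHRNA5, which in mammals form the ganglionic receptor, were lower in st.21 past 2-fold, CHRNA2 was higher, and the remaining 4 were within 2-fold. CHRNA3 had 14.4 and 14.2 TPM in st.21, against 62.2 and 43.0 TPM in st.19, a change of −1.86 (replicate 1 interval −2.66 to −1.66). CHRNB4, which overlaps LOC117884510, had 7.37 and 7.09 TPM in st.21, against 36.5 and 24.1 TPM in st.19, a change of −2.04 (replicate 1 interval −3.35 to −1.59). CHRNA5, an accessory subunit, had 1.77 and 1.24 TPM in st.21, against 4.98 and 3.21 TPM in st.19, but with 2 and 1 reads in st.21 and 16 and 14 reads in st.19 its change of −1.43 came with a replicate 1 interval of −5.11 to 0.14 that includes 0. It was the one gene of the 20 lower ones whose interval did so. Set against a floor of 3 reads per st.21 column, CHRNA5 was at least 1.58-fold lower, so by its bound it was not past 2-fold.

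Autonomic neuron markers were lower in st.21 too, a direction shared by most receptor genes and most general neuronal markers. Of 11 such markers 10 were in the table, 8 were lower in st.21 past 2-fold and none was higher, with a median change of −1.32. With the protein-coding total all 10 markers were lower past 2-fold. Their summed level was 80.8 and 77.5 TPM in st.21, against 256.5 and 176.7 TPM in st.19, and none of the 10 was at 0 reads. In each st.21 column, however, GATA3 had 1 read, TH 2 and SLC18A2 3. Set against a floor of 3 reads per st.21 column, they were at least 1.13-fold, 1.92-fold and 4.96-fold lower, so only SLC18A2 was past 2-fold by its bound. The replicate 1 interval of GATA3, −7.84 to 0.37, includes 0. The catecholamine genes SLC18A2 and DBH, the vesicular transporter of monoamines and the enzyme that makes noradrenaline, had changes of −2.23 and −1.68, and the sympathetic transcription factor gene HAND2 −1.95. Their part in the nicotinic values was not tested.

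CHRNA6, which in mammals joins CHRNB3 in receptors of catecholamine neurons of the brain and is also found in sensory neurons, had 23.5 and 23.5 TPM in st.21 and 25.1 and 18.6 TPM in st.19. Its change was 0.12, and with the protein-coding total −0.40. CHRNA6 made up 28.1% and 28.4% of the nicotinic reads per length in st.21 and 13.5% and 14.5% in st.19, where CHRNA3 led with 33.8% and 34.1%, against 17.1% and 17.0% in st.21. Of the reads on CHRNA6 and CHRNA3 together CHRNA6 took 57.1% in st.21 replicate 1 (interval 46.3% to 67.5%), against 24.4% in st.19 replicate 1 (20.6% to 28.5%). The other members within 2-fold were CHRNA4 at −0.59, which was −1.11 with the protein-coding total, CHRNB3 at −0.27 and CHRNA7 at −0.11. CHRNA2 had 4.93 and 3.92 TPM in st.21, against 2.33 and 1.68 TPM in st.19, from 16 and 12 reads in st.21 and 14 and 14 reads in st.19. Its change of 1.15 (replicate 1 interval 0.11 to 2.39) was 0.63 with the protein-coding total, within 2-fold.

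Muscarinic receptor genes were at low levels, and 3 of 5 were lower in st.21. CHRM2, which encodes the inhibitory receptor of heart and of parasympathetic endings, had 1.64 and 1.64 TPM in st.21, against 8.04 and 5.18 TPM in st.19, a change of −1.97 (replicate 1 interval −2.98 to −1.76). CHRM4, of the same coupling class, had 4.40 and 4.23 TPM in st.21, against 14.5 and 11 TPM in st.19, a change of −1.55 (replicate 1 interval −2.76 to −0.96). CHRM3, which couples to calcium release and whose gene overlaps a tRNA gene, had 1.49 and 1.54 TPM in st.21, against 3.68 and 2.95 TPM in st.19, a change of −1.12 (replicate 1 interval −2.99 to −0.18). CHRM1 had 3.27 and 3.01 TPM in st.21, against 2.03 and 1.21 TPM in st.19, and its change of 1.0 lay at the 2-fold line, with a replicate 1 interval of −0.69 to 2.43 that includes 0. CHRM5, which overlaps AVEN, had at most 7 reads a column.

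**Figure D3:**
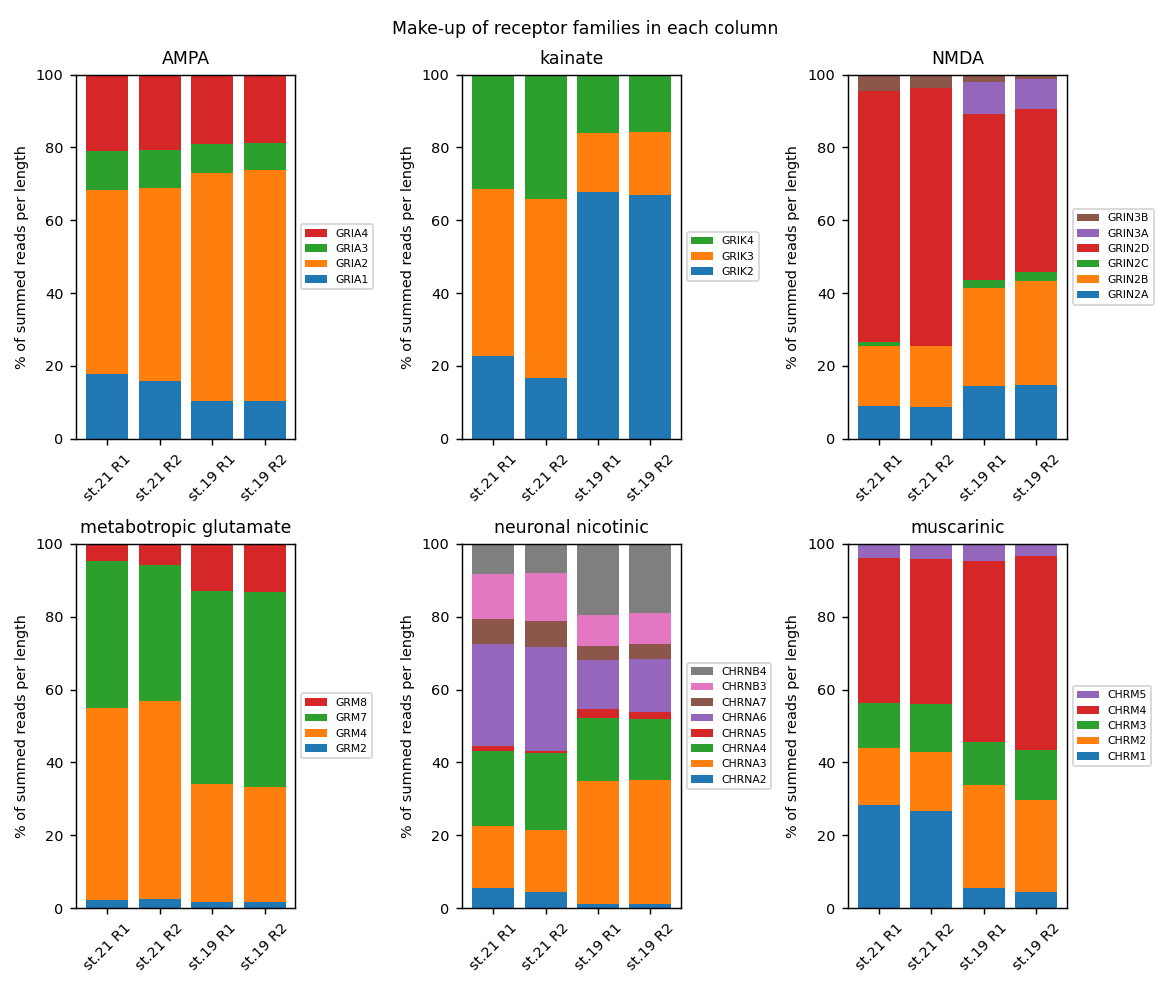
Share of each gene in the summed reads per length of its receptor family (vertical axis, percent), for the st.21 columns on the left and the st.19 columns on the right of each panel, R1 and R2 being replicates 1 and 2. Family members absent from the deposited values, such as GRIN1 and GRIK1, are not counted. GRIK2 shrinks to 22.7% and 16.7% of the kainate genes in st.21, against 67.8% and 67.0% in st.19, and CHRNA6 takes 28.1% and 28.4% of the nicotinic genes in st.21, against 13.5% and 14.5% in st.19.

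Several receptor genes are neighbours in the genome, as they are in other vertebrates. CHRNB4 (chromosome 10, 50841799 to 50866903), CHRNA3 (50876935 to 50886808) and CHRNA5 (50893638 to 50913547) lie within one stretch with gaps of 10031 and 6829 bases, and all 3 were lower in st.21. The CHRNA5 value rests on 2 and 1 reads in st.21, and its replicate 1 interval includes 0. CHRNA6 (chromosome 6, 124019028 to 124034923) and CHRNB3 (124060429 to 124092124) lie 25505 bases apart, and both were within 2-fold. On chromosome 1 GABRG3 (227523155 to 228049998) and GABRA5 (228059585 to 228140296), 9586 bases apart, had changes of −2.25 and −0.62. On chromosome 5 GABRA4, GABRA2 and GABRG1 had 0.14, −0.18 and −0.92. Neighbours of different families could also differ, since GLRB and GRIA2 (chromosome 5, 61128233 to 61250940), with 33612 bases between them, had −0.91 and −2.10. GRIN2D lies on an unplaced scaffold.

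**Figure D4:**
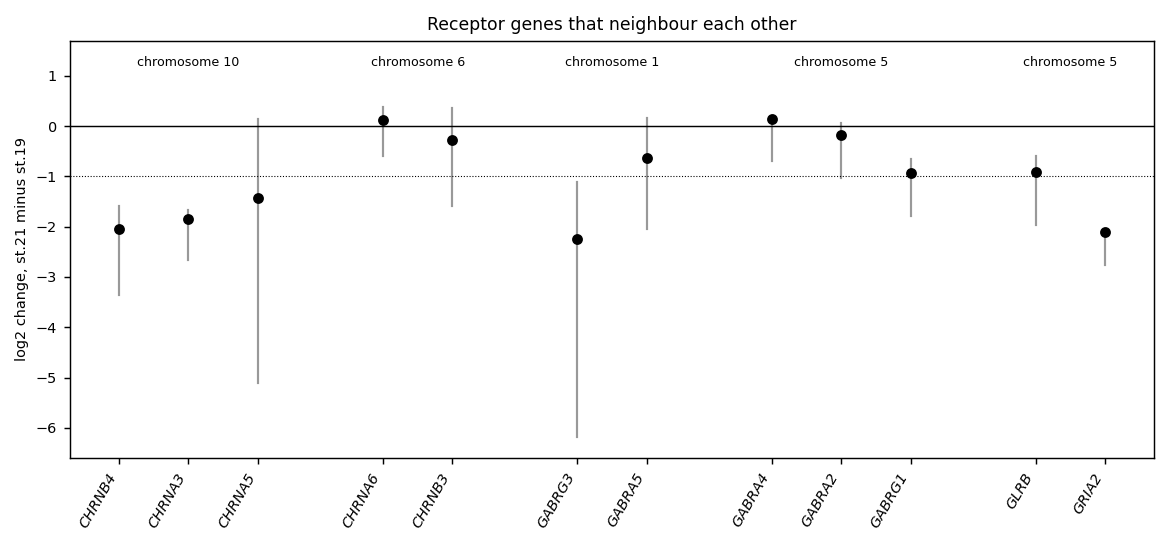
Log2 change, st.21 minus st.19, of receptor genes that lie next to each other, in genome order within each group, with points for the deposited scaling and bars for the 95% counting interval of the replicate 1 columns. The dotted line is at −1. The CHRNB4, CHRNA3 and CHRNA5 points lie at −2.04, −1.86 and −1.43, below both genes of the CHRNA6 and CHRNB3 pair at 0.12 and −0.27.

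Genes that hold receptors in place or tune them were described from lists of partners. Over all genes 9.68% were lower past 2-fold and 17.3% higher, or 25.2% and 7.54% with the protein-coding total. The counts of the partner lists and of the transmitter lists below are to be set beside these shares. Of 36 analysed glutamate receptor partners (42 listed) 8 were lower in st.21 past 2-fold and 2 were higher, with a median change of −0.50. With the protein-coding total 19 were lower and 1 higher. SHISA6, an auxiliary subunit of AMPA receptors, was higher in st.21, with 28.3 and 27.3 TPM in st.21, against 1.89 and 1.36 TPM in st.19, from 70 and 65 reads in st.21 and 7 and 7 reads in st.19, a change of 4.12 (replicate 1 interval 3.25 to 5.74). LRRTM4, a postsynaptic adhesion protein, had 1.60 and 1.64 TPM in st.21, against 7.64 and 4.90 TPM in st.19, a change of −1.92. NETO1, an auxiliary subunit of kainate receptors, had 5.30 and 4.67 TPM in st.21, against 17.1 and 11.1 TPM in st.19, a change of −1.47 (replicate 1 interval −2.52 to −1.05).

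Of 10 analysed partners of GABA and glycine receptors (13 listed) none was lower past 2-fold and 1 was higher, with a median of −0.11, while with the protein-coding total 4 were lower and 1 higher. The higher gene, KCTD12, an auxiliary subunit of GABA-B receptors, had 118 and 111 TPM in st.21, against 36.4 and 24.1 TPM in st.19, a change of 1.95 (replicate 1 interval 1.38 to 2.07). KCTD16, another such subunit, had −0.76, and IQSEC3, a gephyrin partner, −0.63. The nicotinic partners had 1 of 8 analysed (10 listed) lower and 2 higher, with a median of −0.37. With so few genes these counts lie near the shares of all genes. LYPD1, a toxin-like modulator, the lower gene, had 0 reads in each st.21 column and 8 in each st.19 column, so at a floor of 3 reads no fold can be given and its call rests on the count added before the logarithm. RAPSN, which clusters the receptor in muscle, and the kinase gene PTK2B had changes of 1.62 and 1.18, the PTK2B value from at most 5 reads a column, and with the protein-coding total 3 of the 8 were lower and 1 higher.

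Genes that make and move the transmitters were described in the same way. For glutamate 4 of 6 analysed genes (10 listed) were lower in st.21 and none was higher, with a median of −1.37. The neuronal glutamate transporter gene SLC1A1 had 1.07 and 0.75 TPM in st.21, against 8.12 and 5.31 TPM in st.19, a change of −2.88, from 2 and 1 reads in st.21 and 48 and 43 reads in st.19 (replicate 1 interval −6.62 to −1.60). The glial transporter genes SLC1A3 and SLC1A2 had changes of −1.88 and −1.45. SLC17A6, the vesicular glutamate transporter of sensory neurons, was outside the 3 with the largest change and was picked with its values known, at 36.8 and 38.8 TPM in st.21, against 112 and 77.1 TPM in st.19. For GABA and glycine 1 of 7 analysed genes (13 listed) was lower and 1 higher, near the shares of all genes, with a median of −0.08. These 2 genes were GLDC, which breaks down glycine, at −1.53, and SLC6A9, which takes glycine up, at 1.05. With the protein-coding total SLC6A9 was at 0.52, within 2-fold. For acetylcholine 1 of 6 (7 listed) was lower, PRIMA1, the membrane anchor of acetylcholinesterase, at −1.16, with CHAT, the enzyme that makes acetylcholine, at −0.72, COLQ, the collagen tail of the esterase, at −0.53, and a median of −0.48, and with the protein-coding total 3 of the 6 were lower.

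Muscle nicotinic subunits, which belong to no neuronal receptor and were not members, ran the opposite way. CHRNG, the embryonic subunit, had 37.3 and 39.2 TPM in st.21, against 4.97 and 3.78 TPM in st.19, a change of 3.14 (replicate 1 interval 2.31 to 4.0). CHRND had 25.9 and 24.8 TPM in st.21, against 6.34 and 4.35 TPM in st.19, a change of 2.27 (replicate 1 interval 1.35 to 3.13). CHRNB1 had 23 and 21 reads in st.21 and 3 and 3 reads in st.19, a change of 3.31 (replicate 1 interval 2.26 to 6.37). CHRNA1 had 5.92 and 7.51 TPM in st.21 and 6.15 and 4.55 TPM in st.19, a change of 0.33 that was −0.19 with the protein-coding total, and CHRNE was not analysed here. Of the 5 muscle receptor partners 4 were higher past 2-fold, or 2 with the protein-coding total, MUSK, the receptor kinase of the muscle endplate, at 2.47, RAPSN at 1.62 and LRP4, the agrin receptor, at 1.48 among them. All 15 skeletal muscle markers in the table (17 listed) were higher in st.21 past 2-fold, with a summed level of 3177 and 3163 TPM in st.21, against 126.9 and 82.9 TPM in st.19, and none was at 0 reads. Their part in the muscle subunit values was not tested.

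**Figure D5:**
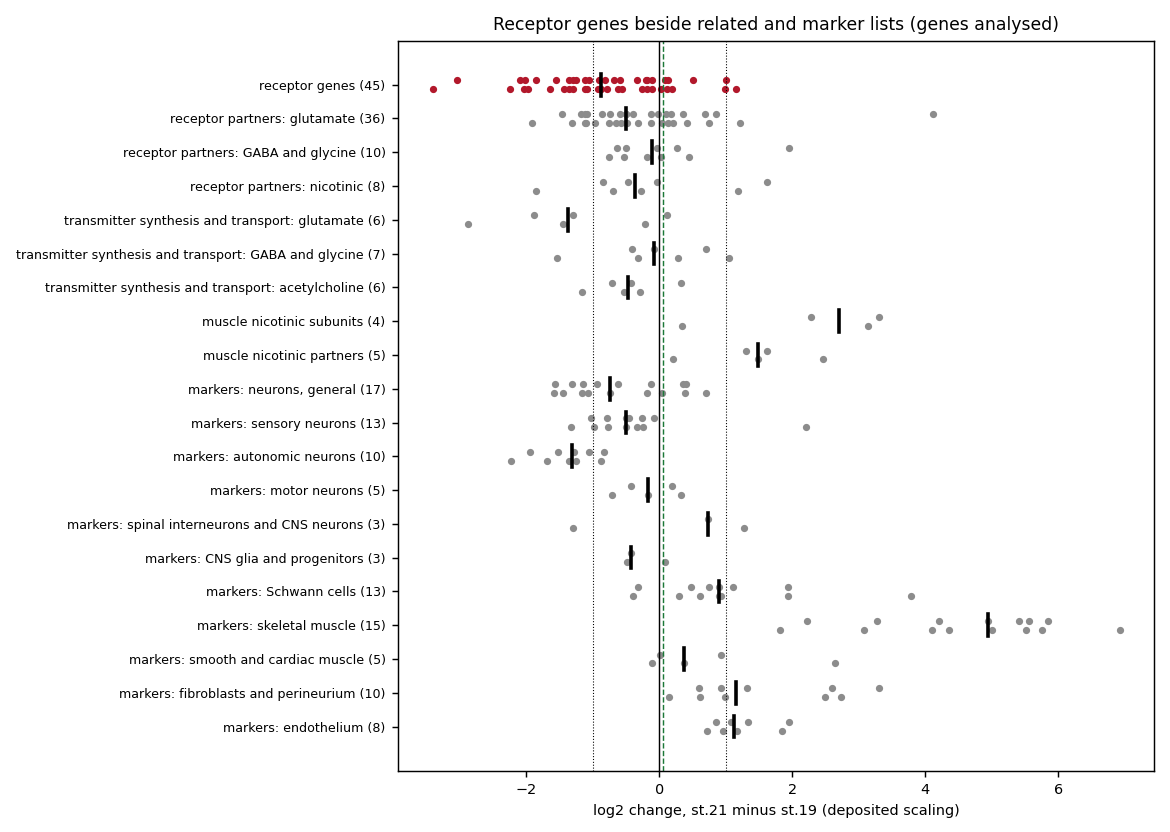
Log2 change, st.21 minus st.19, of each analysed gene (points) of the receptor genes (red), of the partner and transmitter lists and of the cell type markers (grey), with the number analysed in brackets and the median as a black bar. The dashed line is the median of all genes at 0.06 and the dotted lines are at −1 and 1. The receptor median of −0.88 stands beside −0.74 for the general neuronal markers and −1.32 for the autonomic markers in the deposited scaling, and skeletal muscle markers lie furthest right.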

How the data were processed

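RNA of peripheral nerve of *T. scripta* embryos was sequenced. The paper names samples sequenced by a company, Arraystar, and a further batch prepared with a stranded mRNA TruSeq kit. It does not say which of these the deposited columns hold. The authors aligned reads with HISAT2, counted reads per gene with featureCounts and deposited log2 TPM values made with edgeR 3.42.4, with a small count added before the logarithm. Whether replicate columns were separate libraries is not stated. Columns were assigned to stages by the stage and replicate number in their names and the labels, and the further 2 in the st.21 names is unexplained. Whole reads were recovered from the deposited log2 values for all 15289 genes within a tolerance of 1e-06, which returned the depth, the added counts and gene lengths, and the recovery was tested on simulated data.

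Genes that reached 1 TPM in 2 or more columns were analysed. With 1 sample per stage, no test across genes was run. The change was the mean log2 value of st.21 minus that of st.19, with a threshold of 1. Intervals are exact binomial (95%). Bounds set a gene with no more than 3 reads in each column of its lower stage at 3 reads in those columns. Reads are not independent molecules, so intervals and bounds cover counting error only. The members and lists were chosen with earlier results of these data known. Values in each column were given for members past 2-fold, for the member of each family with the highest mean TPM and for members whose direction depended on the scaling, and for other lists the 3 genes with the largest change and each muscle nicotinic subunit were named. Some genes are counted but not reported here by name. Alternatives were median centring, quantile normalization, the protein-coding total, the authors' effective library sizes, log2(TPM + 1), other filters and thresholds, and leaving out each column. Gene positions came from RefSeq (CAS_Tse_1.0), in which 15266 symbols of the table were found. Python 3.11.15, numpy 2.4.6, pandas 2.3.3 and scipy 1.17.1 were used.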

Additional observations from a re-analysis of the deposited data

How the results depend on the processing

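The count of receptor genes lower in st.21 past 2-fold was 20, with 9.68% of all genes lower. It was 20 with median centring (10.2% of all genes) and with quantile normalization (12.1%), and 22 with the authors' effective library sizes (11.5%). It was 17 with log2(TPM + 1) (6.79%) and 29 with the protein-coding total (25.2%). When each column was left out it was 16 to 26, with 16 without st.19 replicate 1 (6.09% of all genes) and 26 without st.19 replicate 2 (15.8%). Without the 1 TPM filter, but still within the deposited genes, it was 21. With a minimum of 5 TPM it was 15, at 1.5-fold 28, and 19 with the interval of the replicate 1 reads beyond no change. The share of all genes under these last settings is not given here, so those counts cannot be set against it. All 20 genes were among those lower with the protein-coding total, and 17 with log2(TPM + 1), where CHRM3 and GRIA1 were among those within 2-fold. The median change was −0.88, and −1.40 with the protein-coding total. The count higher in st.21 was 2, with 17.3% of all genes higher. It was 1 with median centring (16.6% of all genes), quantile normalization (13.7%) and the authors' effective library sizes (15.2%). It was 0 with the protein-coding total (7.54%) and with log2(TPM + 1) (14.3%). With the interval beyond no change it was 1 and with a minimum of 5 TPM 0, settings whose share is not given here. It ranged from 0 to 4 when each column was left out. The 4 came without st.19 replicate 1 (25.2% of all genes), where GLRA1 and GRIN3B joined CHRM1 and CHRNA2. It was 0 without st.19 replicate 2 (11.5%) and 1 without st.21 replicate 1 (17.1%). The causes of these shifts were not tested. No paired analysis was possible because the result comes from no test, with 1 sample per stage. Within replicate 1 the count was 26 lower (15.8% of all genes) and 1 higher (11.5%). Within replicate 2 it was 16 lower (6.0% of all genes) and 3 higher (24.9%). No direction of a called gene reversed under an alternative. Depth limits the low genes most, since 24 of 46 receptor genes had under 20 reads in every st.21 column, and the replicate 1 interval includes 0 for 19 of 46.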
